A study of Mus musculus with 7 samples.

Results

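The integrated stress response genes Gdf15, Atf4, Ddit3, Trib3, Chac1, Asns, Sesn2 and Psat1 were followed through RNA sequencing of mouse endometrial epithelial cells. These 8 genes, called the members here, were chosen by name, with earlier results of these libraries known, and all 8 are among the 24353 genes of the deposited table, where they stand in capitals as GDF15, ATF4, DDIT3, TRIB3, CHAC1, ASNS, SESN2 and PSAT1. Each of them came to 1 FPKM or more in some library and so is among the 12314 genes tested. FPKM values are fragment counts divided by transcript length and by library size, a scale on which levels of different genes can be set side by side. Because the genes were picked with their values in view, their levels and fold changes are given as a description, without p-values. The lists of pathway genes described further on were also chosen with earlier results known. Their p-values are adjusted over all genes tested, which does not account for that choice.

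All mice were C57BL/6 females whose ovaries had been removed at 6 to 7 weeks of age. Of 18 mice randomized in arms of 6, the first arm received tamoxifen at 0.5 mg per day under the skin together with alpelisib at 30 mg/kg per day by mouth, and the next received tamoxifen alone, each for 28 days. A separate set of 2 mice had estradiol for 28 days from a pellet of 0.01 mg made to release over 60 days. The last randomized arm had vehicle for 28 days, a state of estrogen deprivation. The labels do not say whether mice without alpelisib had its solvent, or how the epithelial cells were taken from the uterine horns. Tamoxifen modulates the estrogen receptor, blocking it in the breast while partly activating it in the uterus, and alpelisib is an inhibitor selective for PI3-kinase alpha. The 7 libraries comprise 2 of tamoxifen plus alpelisib, 2 of tamoxifen, 2 of estradiol and 1 of vehicle. The libraries of a replicated group are labelled as separate mice, called mouse 1 and mouse 2 here, whereas the labels do not say whether the vehicle library is from 1 mouse or a pool. Vehicle values therefore have no SD, and every comparison with vehicle rests on that same library.

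The integrated stress response begins with kinases that each sense a different strain, such as unfolded protein in the endoplasmic reticulum (PERK), amino acid shortage (GCN2), double-stranded RNA (PKR) or heme shortage (HRI), and that phosphorylate the translation factor eIF2. Bulk translation then slows while the transcription factor ATF4 is translated more, and ATF4, with partners such as CHOP, turns on genes for amino acid synthesis, amino acid uptake, transfer RNA charging and feedback. ATF4 is thus regulated largely at translation, which RNA levels do not measure. GDF15 is a secreted cytokine of the TGF-beta superfamily that is induced by this response and by p53, and its receptor GFRAL signals with RET in the hindbrain.

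ATF4 binds with C/EBP partners at a composite element whose core reads TGATGNAA, so the promoters of the 8 genes were searched for it on both strands. RefSeq (build GRCm38.p6) gives 10 promoters for them, each covering 250 bases before to 50 bases after a transcription start, and 3 of the 10 (30%) hold the core, against 1304 of 32851 promoters of all genes (3.97%). The 3 belong to Chac1, Asns and Trib3, and they are shown because they place the element in genes whose levels are described below. Capitals mark the 8 bases of the match, and each line reads 5′ to 3′ on the strand of the gene. The Chac1 line is chr2:119350992-119351241 (plus strand), with the match on the reverse strand at positions -193 to -186 from the start. The Asns line is chr6:7693210-7693459 (minus strand), with the match on the forward strand at positions -23 to -16. The Trib3 line is a window of 30 bases, chr2:152344028-152344057 (minus strand), with the match on the reverse strand 15 to 22 bases into the transcript.
Chac1: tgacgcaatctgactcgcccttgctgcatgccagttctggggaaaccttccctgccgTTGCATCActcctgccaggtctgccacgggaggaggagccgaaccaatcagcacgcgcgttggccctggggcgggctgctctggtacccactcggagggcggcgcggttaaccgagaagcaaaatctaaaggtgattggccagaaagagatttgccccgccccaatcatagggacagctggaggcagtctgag
Asns: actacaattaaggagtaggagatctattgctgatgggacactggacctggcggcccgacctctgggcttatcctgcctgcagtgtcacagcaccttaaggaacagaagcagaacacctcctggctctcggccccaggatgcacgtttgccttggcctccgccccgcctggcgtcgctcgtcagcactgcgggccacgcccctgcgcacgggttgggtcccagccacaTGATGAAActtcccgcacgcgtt
Trib3: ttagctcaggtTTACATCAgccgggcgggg
A match of letters is no proof of a bound site, and nothing follows from its absence in the windows of the other genes. The members were chosen as genes of this response, so their share beside that of all promoters is no test of enrichment.

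Depth, estimated from the smallest steps between values of 5704 genes with 1 transcript, was 15.7 to 19.4 M fragments in 6 libraries and could not be estimated for estradiol mouse 2. In these 6 libraries the Gdf15 values stand for about 918 to 37007 fragments, and those of Trib3 for only about 12 to 86. The number of genes at 1 FPKM or more per library was 10109 to 11167. All 10 epithelial markers (keratins, claudins, Epcam, Cdh1 and Muc1) did so in every library, with summed FPKM of 6647 and 7192 with tamoxifen plus alpelisib, 4874 and 6493 with tamoxifen, 3352 and 2832 with estradiol and 7251 in vehicle. Markers of other cell types were present too. The 8 stromal markers summed to 120.2 and 128.2 with tamoxifen plus alpelisib, 54.17 and 53.49 with tamoxifen, 187.4 and 179.6 with estradiol and 256.6 in vehicle, with Dpt at 0 in estradiol mouse 2. The 5 smooth muscle markers summed to 6.14 to 20.75 in the treated libraries and 70.48 in vehicle, and the 5 endothelial markers to 0.907 to 6.726 in the treated libraries and 9.163 in vehicle, with Tek and Emcn at 0 in tamoxifen plus alpelisib mouse 2. Of the 8 leukocyte markers, which summed to 18.93 to 45.53 over the treated libraries and 25.13 in vehicle, Cd3e was at 0 in every library but tamoxifen plus alpelisib mouse 2. The 4 erythroid markers found summed to 236.6 and 261.4 with tamoxifen plus alpelisib, 1238 and 937.5 with tamoxifen, 73.56 and 108.6 with estradiol and 30.4 in vehicle. In bulk RNA, fewer cells of a type and less RNA per cell cannot be told apart.

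Gdf15, the secreted output of the response, was far higher in the vehicle library than in any treated one. Its FPKM was 79.78 and 94.43 with tamoxifen plus alpelisib, 32.88 and 111.3 with tamoxifen, 57.43 and 28.51 with estradiol, and 1237 in vehicle. The vehicle library thus stood 43.4-fold above the lowest library, and only 63 of the 12314 genes tested, Gdf15 included, had an FPKM at least as high there. In the treated libraries it still ranked among the more abundant genes, at 645 and 576 with tamoxifen plus alpelisib, 1350 and 525 with tamoxifen, and 851 and 1526 with estradiol. Among the treated groups the order of the means was 87.1 ± 10.4 with tamoxifen plus alpelisib, 72.1 ± 55.4 with tamoxifen and 43.0 ± 20.5 with estradiol (SD, n = 2 each), and neighbouring groups overlapped. The fitted log2 fold changes were -3.82 ± 0.71 for tamoxifen plus alpelisib, -4.33 ± 0.71 for tamoxifen and -4.90 ± 0.71 for estradiol against vehicle (SE), which are 14.1-fold, 20.1-fold and 29.8-fold lower levels than in vehicle. With tamoxifen plus alpelisib the log2 level differed from that with tamoxifen by 0.51 ± 0.58 (SE), and leaving out tamoxifen mouse 1 turned this difference to -0.36. The vehicle library stood above each of the 6 others for 23.2% of all genes, and at least 10-fold above them for 33 genes (0.268%), of which Gdf15 is one. The same library had the highest sums of the stromal, smooth muscle and endothelial markers, and their part in the Gdf15 level was not tested.

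On the receptor side of GDF15, Gfral is listed at 0 in all 7 libraries. Ret, the receptor tyrosine kinase that GFRAL recruits, had an FPKM of 27.87 and 26.84 with tamoxifen plus alpelisib, 51.69 and 50.88 with tamoxifen, 0.405 and 0.592 with estradiol and 4.22 in vehicle. Ret rose with tamoxifen against vehicle by 3.33 ± 0.16 on the log2 scale (SE, limma adjusted p = 7.32e-05) and fell with estradiol by 1.80 ± 0.16 (limma adjusted p = 0.000833), each in 2 of 2 treated libraries. With tamoxifen plus alpelisib against tamoxifen it fell by 0.88 ± 0.13, again in 2 of 2 libraries (limma adjusted p = 0.0115), a call that ended without either alpelisib library and without tamoxifen mouse 1.

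Atf4, the transcription factor at the centre of the response, followed the same order of groups as Gdf15 over a narrower range. It had an FPKM of 166.7 and 175.4 with tamoxifen plus alpelisib, 76.34 and 146.7 with tamoxifen, 56.22 and 28.34 with estradiol, and 289.1 in vehicle. No 2 groups overlapped, and the vehicle library was 10.2-fold above the lowest estradiol library. The group means were 171 ± 6.13 with tamoxifen plus alpelisib, 111.5 ± 49.8 with tamoxifen and 42.3 ± 19.7 with estradiol (SD, n = 2 each). Fitted log2 differences were -0.75 ± 0.50 for tamoxifen plus alpelisib, -1.44 ± 0.50 for tamoxifen and -2.82 ± 0.50 for estradiol against vehicle, and 2.07 ± 0.41 for tamoxifen plus alpelisib against estradiol (SE).

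Ddit3, which encodes the ATF4 partner CHOP, showed no such order. Its FPKM was 16.65 and 18.10 with tamoxifen plus alpelisib, 10.02 and 31.85 with tamoxifen, 12.00 and 4.31 with estradiol, and 11.53 in vehicle. The tamoxifen libraries spanned those of tamoxifen plus alpelisib and of vehicle, and vehicle lay between the 2 estradiol libraries. The log2 difference was 0.55 ± 0.72 for tamoxifen plus alpelisib, 0.60 ± 0.72 for tamoxifen and -0.59 ± 0.72 for estradiol against vehicle (SE), and the tamoxifen value became -0.19 without tamoxifen mouse 2. In GENCODE M21 the locus overlaps Mars and Gm4189 on the opposite strand, and whether the counting used strand is not given, so reads of Ddit3 and of these genes may not have been separated. The annotation also places a further protein-coding gene model named Ddit3 over the locus on the same strand, an overlap that strand could not resolve.

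Trib3 and Chac1 are low-level targets of ATF4 and CHOP that were highest in different libraries. Trib3 encodes a pseudokinase that restrains ATF4 and AKT. Its FPKM was 0.831 and 0.372 with tamoxifen plus alpelisib, 1.31 and 2.60 with tamoxifen, 1.42 and 0.803 with estradiol, and 2.204 in vehicle, so that all neighbouring groups in the order vehicle, tamoxifen, estradiol and tamoxifen plus alpelisib overlapped. The log2 difference was -1.02 ± 0.34 for tamoxifen plus alpelisib against vehicle and -0.86 ± 0.27 for tamoxifen plus alpelisib against tamoxifen (SE), and both alpelisib libraries lay below both tamoxifen ones. Chac1 encodes an enzyme that degrades glutathione. It had an FPKM of 1.72 and 2.29 with tamoxifen plus alpelisib, 0.681 and 1.72 with tamoxifen, 1.11 and 1.38 with estradiol, and 4.75 in vehicle. Vehicle was the highest library, tamoxifen mouse 2 was level with tamoxifen plus alpelisib mouse 1, and estradiol and tamoxifen overlapped. The log2 difference was -0.94 ± 0.30 for tamoxifen plus alpelisib, -1.43 ± 0.30 for tamoxifen and -1.36 ± 0.30 for estradiol against vehicle (SE). Both genes sit near the pseudocount of 1 FPKM added before taking logs, which understates their fold changes.

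**Figure D1:**
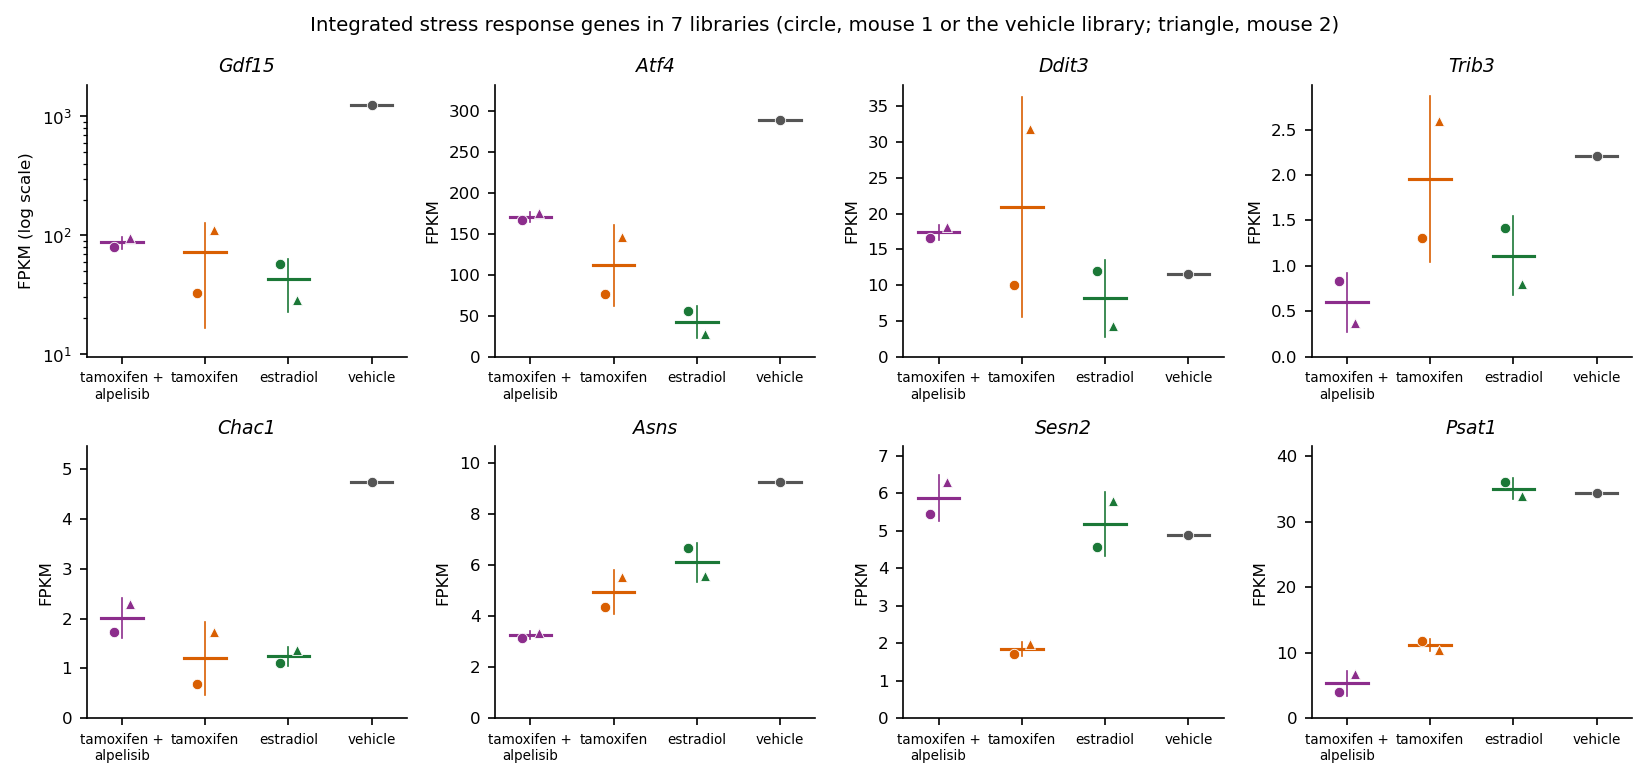
FPKM of the 8 genes in each library (vertical axis, logarithmic for Gdf15), with tamoxifen plus alpelisib, tamoxifen, estradiol and vehicle from left to right. Circles are mouse 1 or the single vehicle library, triangles are mouse 2, horizontal bars are group means and vertical lines the SD of 2 libraries. Gdf15 is at 1237 in vehicle and at most 111.3 elsewhere, Sesn2 is lowest with tamoxifen, and Psat1 is at 33.88 or more with estradiol and in vehicle but at most 11.84 in the tamoxifen libraries.

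Asns and Psat1, both enzymes of amino acid synthesis, were lowest with tamoxifen plus alpelisib. Asns makes asparagine from aspartate. Its FPKM was 3.14 and 3.36 with tamoxifen plus alpelisib, 4.36 and 5.55 with tamoxifen, 6.67 and 5.58 with estradiol, and 9.29 in vehicle. No groups overlapped, although tamoxifen mouse 2 and estradiol mouse 2 were nearly level. Against vehicle the log2 difference was -1.28 ± 0.19 with tamoxifen plus alpelisib, -0.80 ± 0.19 with tamoxifen and -0.54 ± 0.19 with estradiol (SE). The estimate for tamoxifen against estradiol, -0.26 ± 0.16, came to 0.02 after median-of-ratios scaling.

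Psat1 carries out the middle step of serine synthesis from glycolysis. Its FPKM was 4.03 and 6.70 with tamoxifen plus alpelisib, 11.84 and 10.49 with tamoxifen, 36.11 and 33.88 with estradiol, and 34.39 in vehicle. Estradiol and vehicle overlapped at the top, and each of the groups on tamoxifen lay below them and apart from each other. The log2 difference against vehicle was -2.51 ± 0.26 with tamoxifen plus alpelisib, -1.54 ± 0.26 with tamoxifen and 0.02 ± 0.26 with estradiol (SE), the last turning to -0.14 after median-of-ratios scaling. Tamoxifen plus alpelisib differed from tamoxifen by -0.97 ± 0.22. Psat1 overlaps the processed pseudogene Gm3329 on the opposite strand in the annotation.

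Of 12 tested genes of serine, glycine, proline and one-carbon metabolism other than Psat1, 6 fell and 1 rose with tamoxifen against vehicle, while 24.1% of all genes fell and 14.9% rose. Their median log2 change was -0.67, against -0.12 over all genes. This list and those below were chosen with earlier results known. Their counts beside shares of all genes are therefore a description and no test of enrichment. Phgdh, which opens the serine pathway, fell to 1.88 and 2.60 FPKM with tamoxifen, against 13.27 in vehicle (log2 change -2.15 ± 0.19, limma adjusted p = 0.000543). Gpt2, a mitochondrial alanine aminotransferase, fell to 1.11 and 1.24, against 17.17 in vehicle (-3.06 ± 0.21, limma adjusted p = 0.000207). Cbs, which commits homocysteine to cysteine synthesis, fell to 3.94 and 3.69, against 14.31 (-1.67 ± 0.15, limma adjusted p = 0.000595). Psph, the last enzyme of serine synthesis, had 2.44 and 2.80 FPKM with tamoxifen and 3.15 in vehicle and did not pass the test (limma adjusted p = 0.453). Shmt2, which turns serine into glycine in mitochondria, did not pass it either (-0.48 ± 0.31, limma adjusted p = 0.274). With estradiol, 4 of the 12 rose and 0 fell against vehicle (limma, with 5 higher and 0 lower at an unadjusted p under 0.05, in a comparison where 22.7% of all genes rose), among them Aldh18a1, an enzyme of proline synthesis (1.09 ± 0.16, limma adjusted p = 0.00462), and all 4 calls ended when only estradiol and vehicle entered the fit.

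Several of these enzymes were lower still with alpelisib. Against tamoxifen alone, 4 of the 12 fell and 1 rose, beside 4.81% and 6.93% of all genes. Mthfd2, a mitochondrial folate enzyme, fell to 0.652 and 1.26 FPKM with tamoxifen plus alpelisib, against 2.78 and 3.36 with tamoxifen (-1.07 ± 0.18, limma adjusted p = 0.0195). Aldh18a1 fell to 2.996 and 2.926, against 6.48 and 6.18 (-0.89 ± 0.13, limma adjusted p = 0.0127), and Phgdh fell to 0.859 and 0.792, against 1.88 and 2.60 (-0.82 ± 0.16, limma adjusted p = 0.0258). Cbs fell as well (-0.76 ± 0.13, limma adjusted p = 0.0178). Gpt2 was the gene that rose (0.83 ± 0.17, limma adjusted p = 0.03), to 2.63 and 3.13 with tamoxifen plus alpelisib, against 1.11 and 1.24 with tamoxifen. None of the 118 pathway genes tested was called against tamoxifen when either alpelisib library was left out (limma, with 39 and 41 at an unadjusted p under 0.05), and 14 to 692 genes of all 12314 were then called on leaving out any 1 of the 4 libraries, against 1445 with all of them. Stromal marker sums were higher and erythroid marker sums lower with tamoxifen plus alpelisib than with tamoxifen. Of the 8 stromal markers, however, 4 were higher and 4 lower, with 3 and 1 past the threshold (limma). Of the 5 smooth muscle markers 3 fell and 0 rose (limma), with a median log2 difference of -0.78. The part of these cell types in the differences was not tested.

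**Figure D2:**
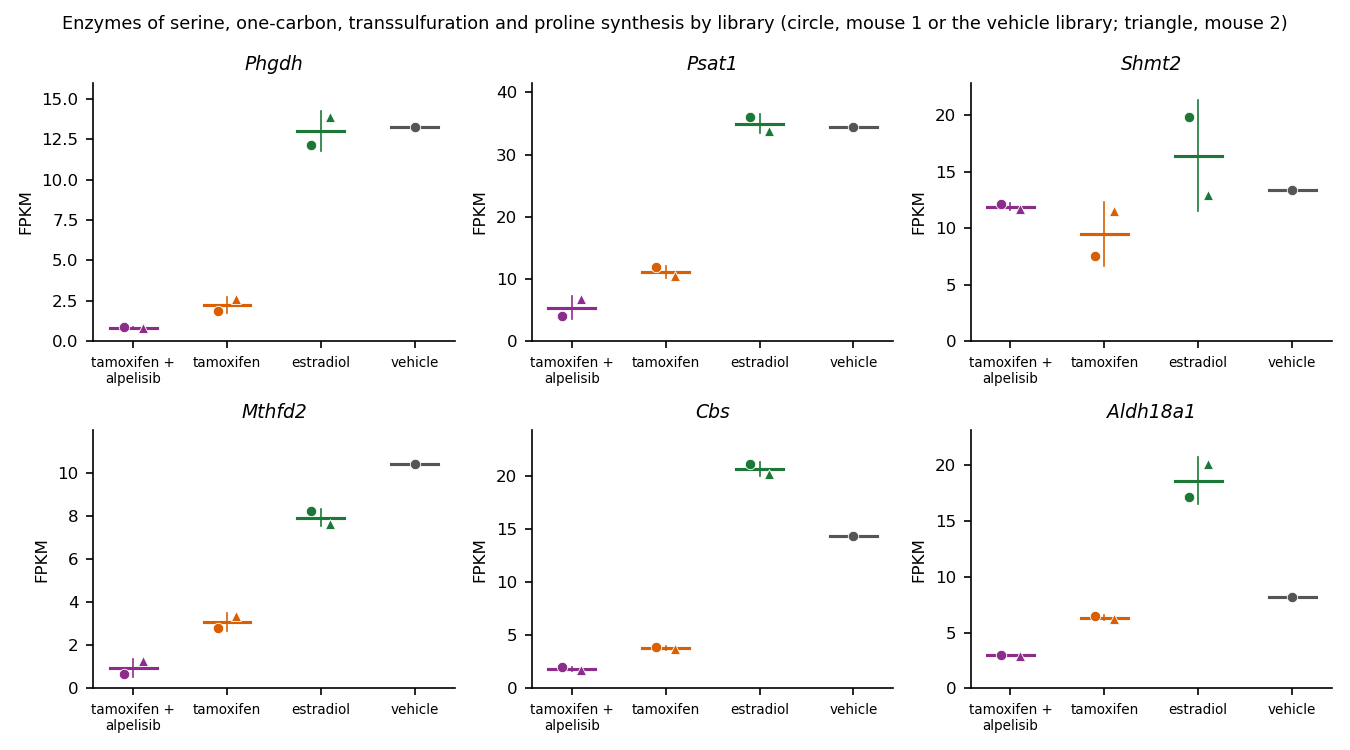
FPKM (vertical axis) of Phgdh, Psat1, Shmt2, Mthfd2, Cbs and Aldh18a1 in each library, with tamoxifen plus alpelisib, tamoxifen, estradiol and vehicle from left to right. Circles are mouse 1 or the vehicle library, triangles mouse 2, bars means and lines the SD of 2 libraries. In all but Shmt2 both alpelisib libraries lie below both tamoxifen libraries, as with Phgdh at 0.859 and 0.792 against 1.88 and 2.60.

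Sesn2, a sestrin that senses leucine and restrains mTORC1, was lowest with tamoxifen. Its FPKM was 5.43 and 6.31 with tamoxifen plus alpelisib, 1.71 and 1.98 with tamoxifen, 4.57 and 5.79 with estradiol, and 4.89 in vehicle. The tamoxifen libraries stood below all others. Estradiol overlapped with both tamoxifen plus alpelisib and vehicle, and the libraries of tamoxifen plus alpelisib lay above vehicle. The log2 difference of tamoxifen was -1.05 ± 0.19 against vehicle and -1.11 ± 0.16 against estradiol, and that of tamoxifen plus alpelisib against tamoxifen was 1.27 ± 0.16 (SE). The annotation places Gm12981, an RNA gene, over Sesn2 on the same strand. The related sestrins were tested as genes of the wider pathway. Sesn1, a p53 target, rose to 3.18 and 4.04 FPKM with tamoxifen plus alpelisib, against 1.49 and 1.73 with tamoxifen (0.82 ± 0.15, limma adjusted p = 0.0223), and fell with tamoxifen against vehicle, where it was at 3.81 (-0.88 ± 0.18, limma adjusted p = 0.0108). Sesn3, a FOXO target, rose to 7.98 and 8.88, against 4.17 and 3.34 with tamoxifen (0.99 ± 0.18, limma adjusted p = 0.0208). Against vehicle, at 8.02, Sesn3 fell with tamoxifen (-0.93 ± 0.21, limma adjusted p = 0.0167), a call that ended without tamoxifen mouse 2.

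The spread between mice was large for the stress factors themselves. In the tamoxifen group, mouse 2 exceeded mouse 1 by 3.38-fold in Gdf15, 3.18-fold in Ddit3, 2.52-fold in Chac1, 1.99-fold in Trib3 and 1.92-fold in Atf4, but by only 1.27-fold in Asns and 1.16-fold in Sesn2, and Psat1 was lower, at 0.886 times mouse 1. In the estradiol group mouse 2 was the lower one, at 0.496, 0.504, 0.359 and 0.565 times mouse 1 for Gdf15, Atf4, Ddit3 and Trib3, and at 0.837 and 0.938 for Asns and Psat1, while Chac1 and Sesn2 were higher in it, at 1.24 and 1.27. With tamoxifen plus alpelisib Gdf15, Atf4, Ddit3 and Trib3 had ratios of 1.18, 1.05, 1.09 and 0.447. Across the 4641 genes at 5 FPKM or more in every library, the 2 mice of a group differed by more than 2-fold in 0.0431% of genes with tamoxifen plus alpelisib, in 1.98% with tamoxifen and in 2.2% with estradiol. Of the members only Gdf15 and Atf4 are among these genes, so the shares are no background for the others. Rn45s, the precursor of ribosomal RNA, stood at 205 and 189 FPKM with tamoxifen plus alpelisib, 530.4 and 229.5 with tamoxifen, 764 and 2276 with estradiol and 240.3 in vehicle. In the tamoxifen and estradiol groups the mouse with more Rn45s was thus the one with less Gdf15, Atf4, Ddit3, Trib3 and, by smaller ratios, Asns, which did not hold in both groups for Chac1, Sesn2 and Psat1, and the part of Rn45s in these differences was not tested.

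**Figure D3:**
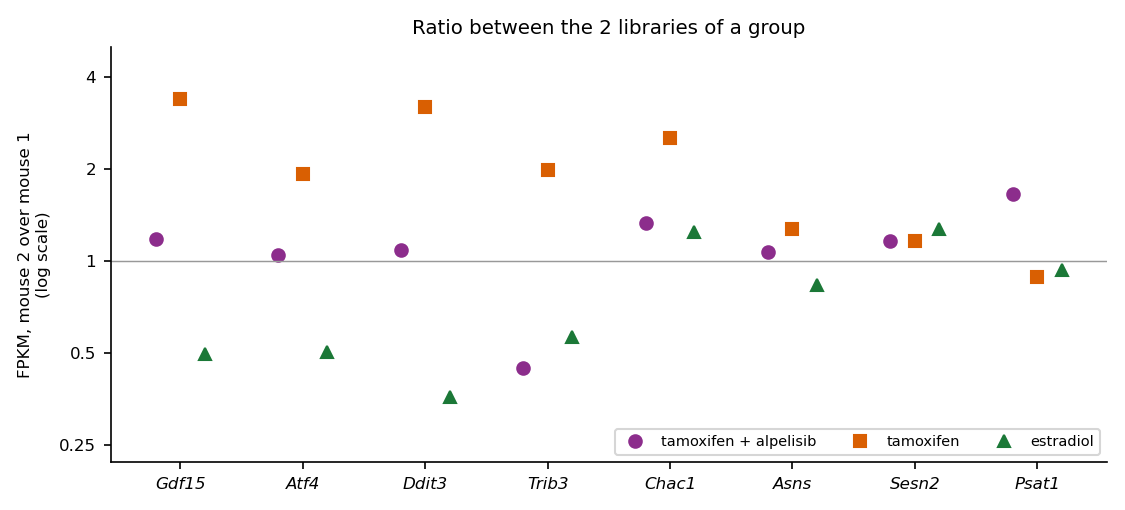
Ratio of FPKM in mouse 2 to mouse 1 (vertical axis, logarithmic) for each of the 8 genes, with tamoxifen plus alpelisib, tamoxifen and estradiol from left to right within a gene. The tamoxifen ratio reaches 3.38 for Gdf15 and 3.18 for Ddit3, the estradiol ratio is 0.359 for Ddit3, and the ratios of Sesn2 lie between 1.16 and 1.27.

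The members are set side by side for each comparison. With tamoxifen against vehicle, 0 of the 8 lay past the threshold (Benjamini-Hochberg adjusted p under 0.05) above vehicle and 5 below it, namely Gdf15, Chac1, Asns, Sesn2 and Psat1, in a comparison where 39% of all genes were called. Tamoxifen plus alpelisib against vehicle had 0 above and 3 below (Gdf15, Asns and Psat1), beside 34.9% of all genes, and estradiol against vehicle 0 above and 3 below (Gdf15, Atf4 and Chac1), beside 35.5%. Tamoxifen plus alpelisib against tamoxifen had Sesn2 above and Psat1 below, beside 11.7% of genes. Tamoxifen against estradiol had Atf4 above and Sesn2 and Psat1 below, beside 48.5%, and tamoxifen plus alpelisib against estradiol had Atf4 above and Asns and Psat1 below, beside 53.2%. The members' median log2 difference was -0.98 for tamoxifen plus alpelisib, -1.24 for tamoxifen and -0.61 for estradiol against vehicle, where the medians over all genes were -0.15, -0.12 and 0.12. The comparisons share libraries, so their values are not independent of one another, and since the genes were chosen with these values known, nothing is read from the counts.

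**Figure D4:**
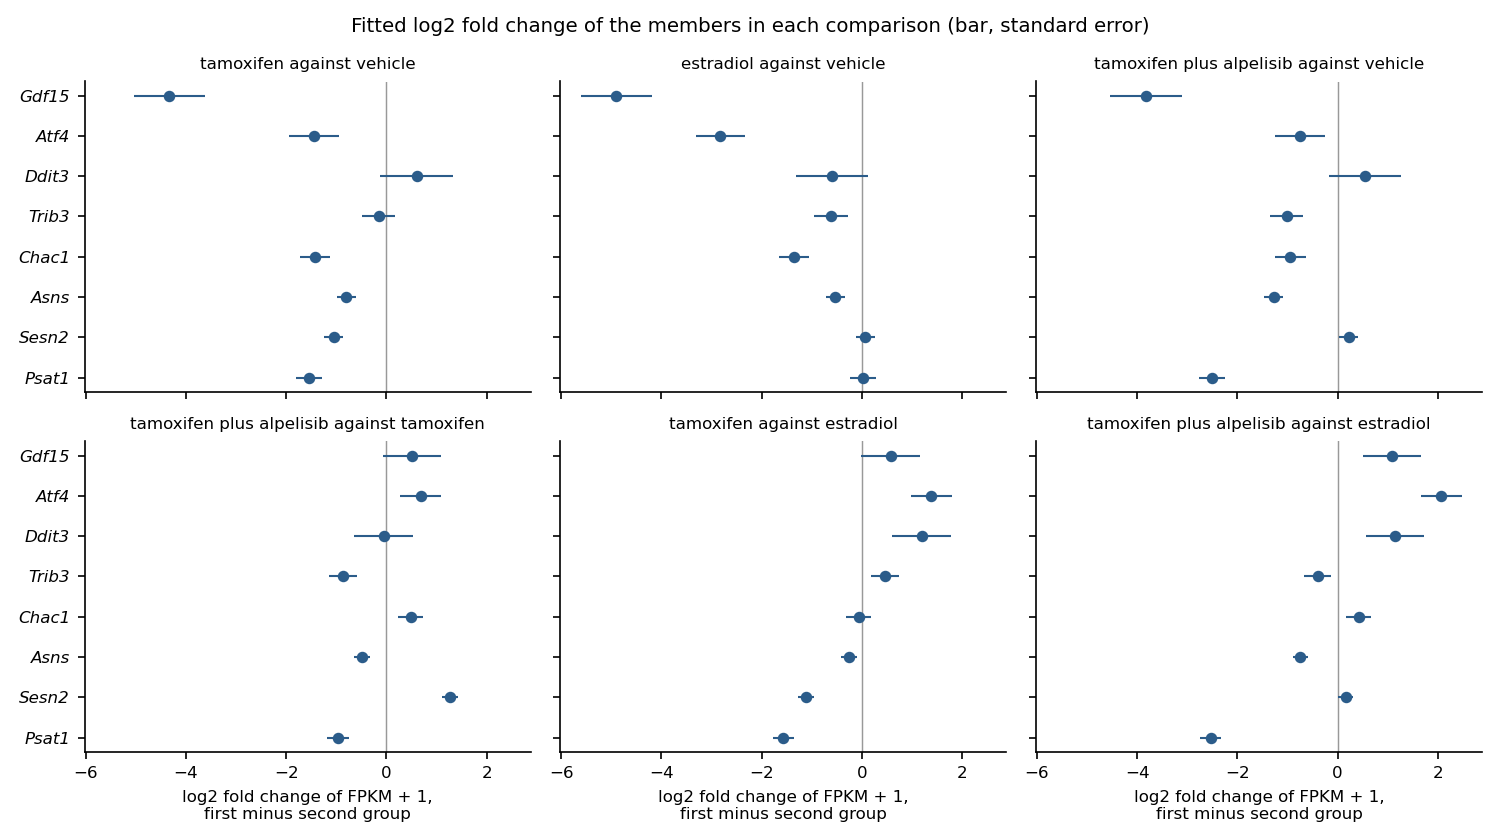
Fitted log2 fold change of FPKM + 1 (horizontal axis, first minus second group) of the 8 genes in the 6 comparisons, with bars for the standard error. Gdf15 lies at -3.82, -4.33 and -4.90 in the comparisons of tamoxifen plus alpelisib, tamoxifen and estradiol with vehicle, and Sesn2 at 1.27 in that of tamoxifen plus alpelisib with tamoxifen.

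The level of Gdf15 over the 7 libraries was most like that of Cyr61, a matricellular protein and target of YAP, among 7198 genes that varied by at least 1 on the log2 scale. Likeness was measured as the root mean square difference of centred log2(FPKM + 1), which was 0.657 for Cyr61. That gene had an FPKM of 631.9 and 672.2 with tamoxifen plus alpelisib, 242.4 and 526.4 with tamoxifen, 267.1 and 167.5 with estradiol and 2307 in vehicle. Next came Lor at 0.66, which encodes the cornified envelope protein loricrin, then Rab26os at 0.729, and Pla2g10os and Cxx1c at 0.735 each. Lor, Pla2g10os and Cxx1c stood out only in the vehicle library, at 18.67, 10.39 and 15.65 FPKM. In the treated libraries Lor was at 0.392 to 1.518, Cxx1c at 0.745 to 1.563 and Pla2g10os at 0. For Atf4 the nearest genes were Phf1 (0.221), Sphk1 (0.232), Hspb1 (0.242), Eif1 (0.252) and Gsto2 (0.254), and those for Trib3 included Uxs1 (0.181), Bag2 (0.198), Fuk (0.209) and Rrs1 (0.214). The genes nearest to Asns included Cenpv (0.0643), Eif4e (0.0733), Tmem109 (0.0956) and Prkrir (0.1). Among the members themselves Trib3 and Asns were closest (0.337) and Gdf15 and Psat1 farthest apart (1.82). Such distances grow with how far a gene varies, and 7 libraries of 4 groups allow many genes to look alike.

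Upstream of ATF4, fewer genes were called with tamoxifen against vehicle than with tamoxifen plus alpelisib against vehicle or in the comparisons that involve estradiol. Of all genes, 48.5% were called with tamoxifen and 53.2% with tamoxifen plus alpelisib against estradiol. This share was 39% with tamoxifen against vehicle, so part of the contrast is shared with the background. Of 16 genes for the kinases, the eIF2 subunits, its exchange factor and its phosphatase subunits, 2 rose and 2 fell with tamoxifen against vehicle, and 1 rose with only these groups in the fit. Over all genes 14.9% rose and 24.1% fell, so these counts do not exceed the background. With estradiol against vehicle 6 of the 16 rose and 3 fell, beside 22.7% and 12.8% of all genes. Against estradiol, 3 rose and 5 fell with tamoxifen, beside 12.3% and 36.2% of all genes. With tamoxifen plus alpelisib against estradiol 3 rose and 8 fell, beside 15.7% and 37.5%. Against vehicle, 1 rose and 5 fell with tamoxifen plus alpelisib, beside 13.1% and 21.8%. Eif2ak4, which encodes GCN2, fell to 0.572 and 1.10 FPKM with tamoxifen, against 5.61 in vehicle (-1.86 ± 0.31, limma adjusted p = 0.00524), while Eif2ak2, which encodes PKR, rose to 8.73 and 6.94, against 2.55 (1.31 ± 0.23, limma adjusted p = 0.00643). The other treatments differed from vehicle in the same direction. Eif2ak4 differed by -0.96 ± 0.31 with estradiol and -1.67 ± 0.31 with tamoxifen plus alpelisib (SE). Eif2ak2 differed by 1.68 ± 0.23 and 0.84 ± 0.23 in these. Eif2ak3 (PERK) had 6.20 and 7.63 FPKM with tamoxifen and 8.35 in vehicle, and Eif2ak1 (HRI) had 8.36 and 7.60 with tamoxifen and 7.19 in vehicle, and neither passed the test (limma adjusted p = 0.406 and 0.538). The phosphatase subunit Ppp1r15b, which keeps eIF2 dephosphorylated at rest, fell to 9.13 and 9.78 with tamoxifen, against 34.91 in vehicle (-1.78 ± 0.18, limma adjusted p = 0.000759). Ppp1r15b was also below vehicle with estradiol, at a mean of 10.36, and with tamoxifen plus alpelisib, at a mean of 14.93. The inducible subunit Ppp1r15a, or GADD34, itself an ATF4 target, had 84.24 and 190.2 FPKM with tamoxifen and 188.7 in vehicle (limma adjusted p = 0.429). With estradiol Ppp1r15a fell to 52.31 and 28.90 (-2.25 ± 0.53, limma adjusted p = 0.0201), a call that ended without estradiol mouse 2 and with no filter on low values. Against tamoxifen alone, 1 of the 16 rose and 1 fell with tamoxifen plus alpelisib, beside 6.93% and 4.81% of all genes. Ppp1r15b rose to 14.06 and 15.80 (0.61 ± 0.14, limma adjusted p = 0.0449). Eif2b3, a subunit of the exchange factor, fell (-0.62 ± 0.14, limma adjusted p = 0.0391).

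Among 8 partner transcription factors, Atf3 and Cebpb had the order of group means seen for Atf4, though the tamoxifen and estradiol libraries of each overlapped. For Cebpb the libraries of tamoxifen plus alpelisib and of tamoxifen overlapped as well. Atf3 had an FPKM of 542 and 578.4 with tamoxifen plus alpelisib, 139.4 and 268.8 with tamoxifen, 226.3 and 119.6 with estradiol, and 836.4 in vehicle. Atf3 fell against vehicle with tamoxifen (-2.11 ± 0.50, limma adjusted p = 0.0189) and with estradiol (-2.34 ± 0.50, limma adjusted p = 0.0151). The tamoxifen call ended without tamoxifen mouse 1 and with no filter on low values, and the estradiol call when only the compared groups were fitted. Jdp2, a related repressor, went the other way with tamoxifen, to 173.8 and 219.9 FPKM, against 24.81 in vehicle (2.93 ± 0.33, limma adjusted p = 0.00124), and fell to 6.85 and 3.64 with estradiol (-2.10 ± 0.33, limma adjusted p = 0.00551). Cebpb (29.45 and 61.22 with tamoxifen, 112 in vehicle, limma adjusted p = 0.0528), Atf5 (14.02 and 18.12, against 22.86, limma adjusted p = 0.245) and Nupr1 (7.67 and 15.46, against 10.79, limma adjusted p = 0.98) did not pass the test with tamoxifen against vehicle. With estradiol against vehicle Cebpb fell to 41.26 and 25.91 (-1.75 ± 0.45, limma adjusted p = 0.0273) and Atf5 to 12.09 and 7.07 (-1.22 ± 0.31, limma adjusted p = 0.0252), while Nupr1 rose to 47.4 and 24.21 (1.57 ± 0.48, limma adjusted p = 0.0468). Each of these calls ended with no filter on low values, and also without estradiol mouse 2 for Cebpb, without estradiol mouse 1 and at a pseudocount of 0.1 for Nupr1, and with only the compared groups for Atf5 and Nupr1. In limma, 0 of the 8 were called for tamoxifen plus alpelisib against tamoxifen (3 at an unadjusted p under 0.05), and Atf3 had the lowest adjusted p of them (1.53 ± 0.41, adjusted p = 0.0647).

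Several amino acid transporters of the response fell in each comparison with vehicle. Of 8 tested, 5 fell and 1 rose with tamoxifen, 6 fell and 1 rose with tamoxifen plus alpelisib, and 4 fell and 1 rose with estradiol (limma). Of all genes, 24.1% fell and 14.9% rose in the comparison of tamoxifen, 21.8% and 13.1% in that of tamoxifen plus alpelisib, and 12.8% and 22.7% in that of estradiol. Slc7a5, the leucine transporter LAT1, had an FPKM of 2.08 and 1.87 with tamoxifen plus alpelisib, 1.89 and 1.66 with tamoxifen, 9.36 and 9.34 with estradiol and 25.74 in vehicle, and fell by 3.27 ± 0.15 on the log2 scale with tamoxifen against vehicle (limma adjusted p = 7.32e-05). Its partner Slc3a2 fell to 30.69 and 45.37 with tamoxifen, against 104.5 in vehicle (-1.46 ± 0.29, limma adjusted p = 0.00964), and the arginine transporter Slc7a1 to 7.09 and 5.88, against 17.78 (-1.33 ± 0.17, limma adjusted p = 0.00202). The cystine transporter Slc7a11 differed from these. It rose with estradiol, to 23.11 and 29.96 FPKM, against 9.04 in vehicle (1.45 ± 0.25, limma adjusted p = 0.0075), and fell with tamoxifen plus alpelisib against tamoxifen, at 4.518 and 4.498 against 11.28 and 7.85 (-0.92 ± 0.20, limma adjusted p = 0.0388). Leaving out tamoxifen plus alpelisib mouse 1 or mouse 2 left 2 or 3 of the 6 calls against vehicle.

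Some aminoacyl-tRNA synthetases, which charge transfer RNAs, fell with tamoxifen plus alpelisib. Of 12 that are known ATF4 targets, 0 were called with tamoxifen against vehicle (limma, 3 at an unadjusted p under 0.05), beside 39% of all genes. With tamoxifen plus alpelisib against vehicle 8 fell, beside 21.8% of all genes. With tamoxifen plus alpelisib against tamoxifen 6 fell, where 4.81% of all genes fell. Wars fell to 6.26 and 5.86 FPKM with tamoxifen plus alpelisib, against 16.55 and 13.88 with tamoxifen (-1.20 ± 0.14, limma adjusted p = 0.00678). Mars, which overlaps Ddit3 in the annotation, fell to 4.63 and 5.32, against 11.14 and 11.18 (-1.03 ± 0.13, limma adjusted p = 0.00768), and Tars to 8.10 and 8.27, against 14.92 and 15.45 (-0.82 ± 0.12, limma adjusted p = 0.0114). The median of the 12 was -0.60 in this comparison, against -0.03 over all genes. Of 8 cytosolic synthetases not listed as ATF4 targets, 2 fell, with a median of -0.14, and the difference between the lists was not tested. With estradiol, 7 of the 12 rose against vehicle, beside 22.7% of all genes, among them Iars (1.27 ± 0.14, limma adjusted p = 0.00201). Of the 8 other cytosolic synthetases 4 rose in that comparison. The count of 7 came to 4 after median-of-ratios scaling and to 1 with only the compared groups in the fit. The 8 calls of tamoxifen plus alpelisib against vehicle came to 3 without mouse 1 and 4 without mouse 2, and the 6 calls against tamoxifen to 0 without either alpelisib library and to 1 without tamoxifen mouse 1.

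**Figure D5:**
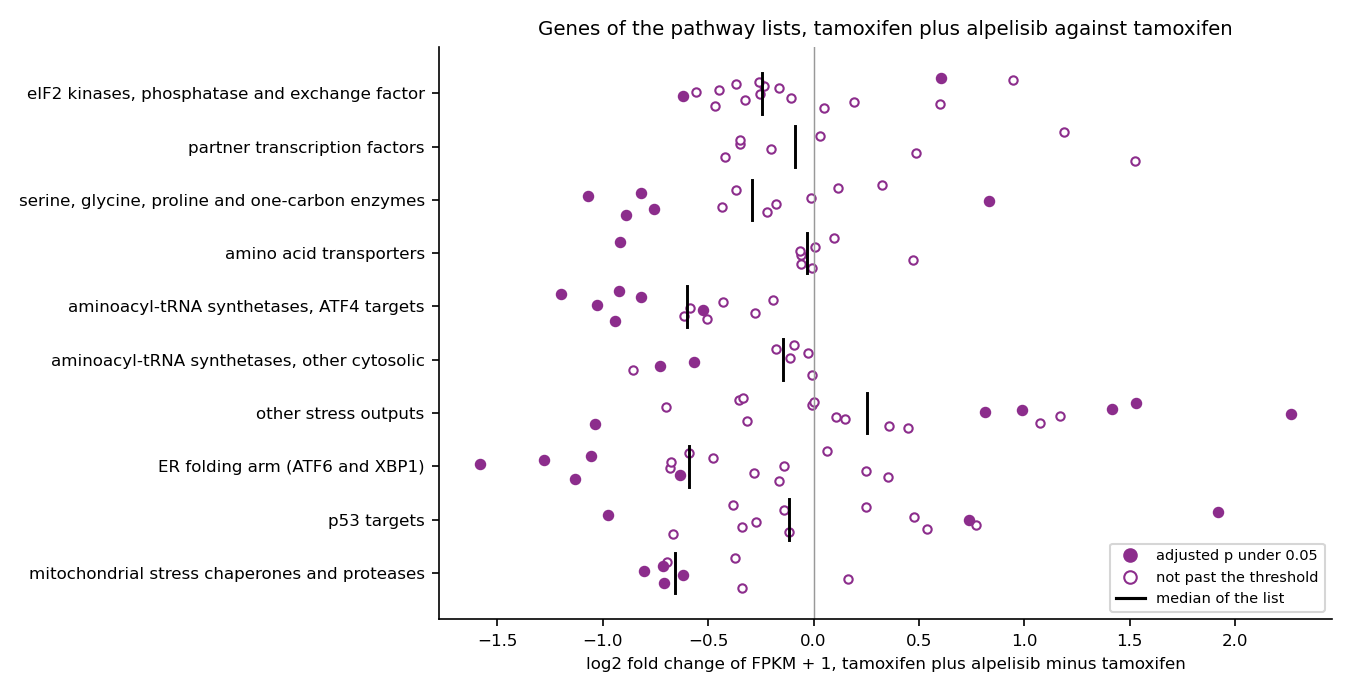
Log2 fold change of FPKM + 1 (horizontal axis, tamoxifen plus alpelisib minus tamoxifen) of every tested gene of the 10 pathway lists, one row per list. Filled points have a limma adjusted p under 0.05, open points do not, and vertical bars are list medians, which lie at -0.60 for the synthetases that are ATF4 targets and at 0.25 for the other stress outputs.

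Other outputs of stress signalling went in both directions. Of 18 tested, 4 rose and 8 fell with tamoxifen against vehicle, the count of falls coming to 5 without tamoxifen mouse 1, beside 14.9% and 24.1% of all genes. Ddit4, an mTORC1 inhibitor also known as REDD1, rose to 165.2 and 240.3 FPKM with tamoxifen, against 17.7 in vehicle (3.42 ± 0.29, limma adjusted p = 0.000434), and Stc2, a secreted glycoprotein, to 37.10 and 37.72, against 3.95 (2.96 ± 0.24, limma adjusted p = 0.000363). Both genes were above vehicle with the other treatments too. Ddit4 rose with estradiol (1.45 ± 0.29, limma adjusted p = 0.0119) and with tamoxifen plus alpelisib (2.39 ± 0.29, limma adjusted p = 0.00194). Stc2 rose by 1.81 ± 0.24 (limma adjusted p = 0.00309) and 2.26 ± 0.24 (limma adjusted p = 0.00116) in these. Ddit4 fell with tamoxifen plus alpelisib against tamoxifen, at 99.9 and 93.71 against 165.2 and 240.3 (-1.04 ± 0.24, limma adjusted p = 0.0408). In that comparison 5 of the 18 rose, beside 6.93% of all genes. Ndrg1, a stress-responsive gene, rose to 48.76 and 53.46, against 7.64 and 12.54 with tamoxifen (2.27 ± 0.22, limma adjusted p = 0.00487). Trib1, a relative of Trib3, rose to 89.61 and 90.52, against 23.29 and 39.85 (1.53 ± 0.25, limma adjusted p = 0.0179), in contrast to the lower values of Trib3 itself, whereas Trib2 had 2.96 and 2.78 FPKM, against 2.76 and 2.96 with tamoxifen (limma adjusted p = 0.996). Fgf21, the other hormone of this response, is listed at 0 in every library.

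The folding arm of the endoplasmic reticulum stress response, driven by ATF6 and XBP1, rose in part with tamoxifen. Of 15 genes, 9 rose and 0 fell against vehicle (limma, 10 and 0 at an unadjusted p under 0.05), where 14.9% of all genes rose. With tamoxifen plus alpelisib against tamoxifen 5 fell, beside 4.81% of all genes. With estradiol against vehicle 4 rose, among them Sdf2l1, Pdia4 and Hyou1, and 1 fell (Xbp1), beside 22.7% and 12.8% of all genes. The count of 9 came to 5 with only the compared groups in the fit. Sdf2l1, a chaperone complex subunit, had an FPKM of 33.33 and 30.02 with tamoxifen plus alpelisib, 67.25 and 66.65 with tamoxifen, 35.3 and 26.97 with estradiol, and 11.03 in vehicle, with a log2 change of 2.50 ± 0.21 for tamoxifen against vehicle (limma adjusted p = 0.000395) and -1.06 ± 0.17 for tamoxifen plus alpelisib against tamoxifen (limma adjusted p = 0.0153). Hyou1, a chaperone of the same compartment, fell with tamoxifen plus alpelisib to 14.76 and 13.09, against 52.69 and 36.13 with tamoxifen (-1.58 ± 0.24, limma adjusted p = 0.014). The master chaperone Hspa5, or BiP, had 650 and 894.5 FPKM with tamoxifen and 530.2 in vehicle (limma adjusted p = 0.278), and Xbp1 had 44.97 and 53.87, against 63.85 (limma adjusted p = 0.157).

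Against estradiol, many synthetases and enzymes of the wider pathway fell. With tamoxifen plus alpelisib all 12 synthetases that are ATF4 targets and 9 of the 12 metabolic enzymes fell (limma), in a comparison where 37.5% of all genes fell. So did 6 of the 8 cytosolic synthetases not listed as ATF4 targets. Cbs fell to 1.99 and 1.71 FPKM with tamoxifen plus alpelisib, against 21.15 and 20.17 with estradiol (-2.93 ± 0.13, limma adjusted p = 6.3e-05), and Iars fell to 5.15 and 5.18, against 21.99 and 20.73 (-1.86 ± 0.12, limma adjusted p = 0.000151). With tamoxifen alone 8 of the 12 ATF4-target synthetases, 3 of the 8 others and 8 of the 12 enzymes fell, beside 36.2% of all genes. The count of ATF4-target synthetases came to 5 after median-of-ratios scaling. Over the 10 lists, 27 of 118 genes rose and 53 fell with tamoxifen plus alpelisib against estradiol, where 15.7% of all genes rose. With tamoxifen against estradiol 24 rose and 35 fell, where 12.3% of all genes rose. After median-of-ratios scaling 37 rose and 40 fell with tamoxifen plus alpelisib, and 30 rose and 21 fell with tamoxifen. Against vehicle, 12 rose and 35 fell with tamoxifen plus alpelisib (20 and 26 after that scaling), 21 rose and 25 fell with tamoxifen (27 and 25), and 32 rose and 23 fell with estradiol (21 and 30). Without scaling, 13.1% of all genes rose and 21.8% fell with tamoxifen plus alpelisib against vehicle. These shares were 14.9% and 24.1% with tamoxifen and 22.7% and 12.8% with estradiol. The scaling moved the median log2 difference of all genes by over 0.1 in each of these comparisons, which without it were -0.15 to 0.12 against vehicle and -0.26 against estradiol and with it lay between -0.01 and 0.01.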

How the data were processed

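The authors deposited 1 table of FPKM values for 24353 genes in 7 libraries, made from total RNA with TruSeq libraries, per the labels' protocols. The submitters' processing notes name CASAVA, Bowtie and Cufflinks, without versions or roles. The only build they name is human, while the symbols are mouse ones, so no position is taken from the table. Values are not whole numbers, so no count test was run. Limma 3.58.1 (R 4.3.3, trend, empirical Bayes) was fitted to log2(FPKM + 1) of 12314 genes that reached 1 FPKM in 1 or more libraries, with 4 group means, 3 residual and 3.27 prior degrees of freedom, and Benjamini-Hochberg adjustment over all genes per comparison (threshold 0.05). Vehicle, with 1 library, is assumed to vary like the other groups. The labels tell mice apart but not their preparation, so p-values measure the spread between these libraries. The method was checked on simulated data, where it missed most of the smaller changes in each comparison with the single vehicle library. Far fewer genes were changed in the simulation than were called here, so its miss rate does not carry over to these data. A gene that did not pass against vehicle may still differ. Sequences are from RefSeq, gene overlaps from GENCODE M21. Tables and figures used Python 3.11.15. The 8 genes and the 10 pathway lists were chosen with earlier results of these data known. Named besides the 8 genes are up to 3 genes of lowest p per list among those called in a comparison, a fixed set of pathway genes, and the 5 genes nearest to Gdf15, Atf4, Trib3 and Asns, not all of which are reported here. Alternatives were median-of-ratios scaling, no filter, a filter in 2 libraries, a pseudocount of 0.1, only the compared groups, each replicate left out and a replicate block.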

Additional observations from a re-analysis of the deposited data

How the results depend on the processing

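Counts that moved by over 1.5 times are given here. With only the compared groups in the fit, estradiol against vehicle had 1597 genes called in place of 4366, and 8 higher and 13 lower pathway genes in place of 32 and 23, whereas tamoxifen plus alpelisib against vehicle had 6985 in place of 4299, 31 higher and 54 lower pathway genes in place of 12 and 35, and 7 of the 8 members in place of 3. Median-of-ratios scaling gave 21 higher pathway genes for estradiol against vehicle, 20 for tamoxifen plus alpelisib against vehicle, and 21 lower ones, in place of 35, for tamoxifen against estradiol. With no filter on low values, tamoxifen plus alpelisib against tamoxifen had 870 genes in place of 1445, 3 higher and 11 lower pathway genes in place of 9 and 25, and 1 member in place of 2. Leaving out each replicate in turn gave these ranges. Genes called numbered 3691 to 3888 for tamoxifen against vehicle, 3877 to 5063 for estradiol against vehicle, 1900 to 1977 for tamoxifen plus alpelisib against vehicle, 14 to 692 for tamoxifen plus alpelisib against tamoxifen, 4326 to 6090 for tamoxifen against estradiol and 3871 to 6614 for tamoxifen plus alpelisib against estradiol. Higher pathway genes numbered 7 in both cases for tamoxifen plus alpelisib against vehicle, 0 to 4 against tamoxifen and 15 to 29 against estradiol. Lower ones numbered 16 to 18, 0 to 10 and 35 to 53 in these. Members called numbered 0 to 1 for tamoxifen plus alpelisib against tamoxifen, 2 to 4 for tamoxifen against estradiol and 2 to 3 for tamoxifen plus alpelisib against estradiol. The vehicle library could not be left out. Where a replicate was left out, the lone library of its group was assumed to vary like the others, and beyond the smaller number of libraries the cause was not tested. Mouse numbers were not treated as pairs, since deviations of equal numbers correlated at -0.403 (tamoxifen and estradiol), -0.182 (tamoxifen plus alpelisib and estradiol) and 0.273 (tamoxifen plus alpelisib and tamoxifen) over 12314 genes. A replicate block gave 603 genes, 3 higher and 9 lower pathway genes and 1 member for tamoxifen plus alpelisib against tamoxifen, 5043 genes and 2 members for tamoxifen against estradiol, and 5772 genes and 3 members for tamoxifen plus alpelisib against estradiol. No paired analysis was possible for the comparisons with vehicle because its library carries no number. Of 2367 fold changes of named pathway genes under alternatives, 2059 kept their direction and side of the threshold, 274 kept the direction but lost the threshold, 34 passed it newly and 0 reversed past it. Of 408 fold changes of the members under alternatives, 66 moved by more than the fitted SD between replicates, among them Gdf15 for tamoxifen plus alpelisib against tamoxifen, at -0.36 to 1.37. The limit of depth is greatest for Trib3 and Chac1, with about 12 to 86 and 20 to 150 fragments in the 6 libraries whose depth could be estimated.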

Other observations

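Among mitochondrial stress chaperones and proteases, a set that answers to ATF4 and ATF5 in part, several fell with alpelisib. Of 8 genes, 4 fell and 0 rose with tamoxifen plus alpelisib against tamoxifen (limma, 6 and 0 at an unadjusted p under 0.05), where 4.81% of all genes fell. With tamoxifen plus alpelisib against vehicle 5 fell, beside 21.8% of all genes. Hspa9, the mitochondrial HSP70, fell to 27.87 and 30.71 FPKM with tamoxifen plus alpelisib, against 58.04 and 46.25 with tamoxifen (-0.80 ± 0.16, limma adjusted p = 0.0296), and stood at 78.4 and 77.12 with estradiol and 77.99 in vehicle. Clpp, a matrix protease, fell to 13.5 and 13.56, against 24.18 and 21.43 with tamoxifen (-0.71 ± 0.15, limma adjusted p = 0.0346). Clpx, the partner of that protease, had 8.04 and 9.14 FPKM with tamoxifen plus alpelisib and 6.52 and 8.71 with tamoxifen, and did not pass the test (0.16 ± 0.16, limma adjusted p = 0.56). The count of 5 against vehicle came to 1 without either alpelisib library, and that of 4 against tamoxifen to 0.

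Targets of p53 were counted by comparison. Of 13 genes, 1 rose and 3 fell with tamoxifen against vehicle (0 fell without tamoxifen mouse 1), beside 14.9% and 24.1% of all genes. With estradiol against vehicle 4 fell (2 with only these groups in the fit) and 0 rose (limma, 5 and 0 at an unadjusted p under 0.05), beside 12.8% and 22.7%. With tamoxifen plus alpelisib against tamoxifen 2 rose and 1 fell, beside 6.93% and 4.81%. Against estradiol, 6 rose and 1 fell with tamoxifen plus alpelisib, beside 15.7% and 37.5% of all genes, and 3 rose and 1 fell with tamoxifen, beside 12.3% and 36.2% (6 rose after median-of-ratios scaling and 5 without tamoxifen mouse 1). Plk2, a polo-like kinase, rose to 226.8 and 249.6 FPKM with tamoxifen plus alpelisib, against 50.18 and 76.75 with tamoxifen (1.92 ± 0.24, limma adjusted p = 0.00791), and Mdm2, which degrades p53, to 13.04 and 14.79, against 7.57 and 8.30 (0.74 ± 0.14, limma adjusted p = 0.0246). Phlda3 was the gene that fell in this comparison (-0.976 ± 0.199, limma adjusted p = 0.0306). It was also the gene that rose with tamoxifen against vehicle (2.555 ± 0.244, limma adjusted p = 0.000677). Cdkn1a, the cell cycle inhibitor p21, had 95.09 and 101.3 FPKM with tamoxifen plus alpelisib, 45.93 and 70.89 with tamoxifen, 17.72 and 11.69 with estradiol and 81.98 in vehicle, and fell with estradiol against vehicle (-2.43 ± 0.33, limma adjusted p = 0.00346).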
